A study of Mus musculus with 8 samples.

Results

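The CXC chemokines and platelet factor 4 are described here in GFP-positive cells sorted from mouse kidneys 3 days after ischemia. The family members were taken by gene symbol: Cxcl1, Cxcl2, Cxcl5, Cxcl9, Cxcl10, Cxcl12, Cxcl13, Cxcl14, Cxcl16 and Pf4. All 10 were measured, by 18 probe sets, among 18193 genes in all. The Ischemic group held 5 kidneys of male FSP1-eGFP mice on the C57BL/6 background, 6 months old, in which the vessels of the left kidney had been clamped for 45 minutes and then released, with buprenorphine given after surgery. The Normal group held 3 non-ischemic kidneys of the same strain, sex and age, which the labels also call sham, without describing a sham operation. In both groups the FSP1 (S100a4) promoter drives the GFP by which cells were sorted, and that promoter is known to be active in myeloid cells as well as in fibroblasts. Each array holds RNA amplified from sorted cells of a kidney, and the labels do not say whether the Normal kidneys came from 3 separate mice, so the p-values measure the spread between these arrays, which may be technical in part.

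Chemokines are small secreted proteins that direct the movement of leukocytes by binding G protein-coupled receptors on them, and the CXC class is named for the spacing of its first cysteines. Cxcl1, Cxcl2 and Cxcl5 carry a glutamate-leucine-arginine motif, bind Cxcr2 and recruit neutrophils, and Cxcl1 and Cxcl2 are textbook targets of NF-kappaB. Cxcl9 and Cxcl10 are induced by interferons and attract T and NK cells through Cxcr3. In injured kidney, tubule cells, endothelium and macrophages are all known sources of chemokines.

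The family's genes lie mostly together. In the RefSeq annotation of assembly GRCm38.p6, chromosome 5 carries Cxcl5, Ppbp, Pf4, Cxcl3, Cxcl15, Cxcl1 and Cxcl2 as consecutive protein-coding genes. Cxcl9, Cxcl10 and Cxcl13 lie farther along the same chromosome, Cxcl9 and Cxcl10 with Art3 between them. Cxcl12, Cxcl14 and Cxcl16 are on chromosomes 6, 13 and 11.

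The 220 bases before the start of 4 genes are shown for Cxcl1, Cxcl2 and Cxcl10, the members with a match to the NF-kappaB consensus, and for Pf4, the member whose groups did not overlap. They are RefSeq sequences of GRCm38.p6, written 5′ to 3′ on the gene's own strand, and capitals mark matches to the 10-letter NF-kappaB consensus and, in Cxcl10 alone, also to GAAANNGAAA, the core of the interferon-stimulated response element. They cover chr5:90891025-90891244 (plus strand) for Cxcl1, chr5:90903679-90903898 (plus strand) for Cxcl2, chr5:92348890-92349109 (minus strand) for Cxcl10 and chr5:90772215-90772434 (plus strand) for Pf4.
Cxcl1: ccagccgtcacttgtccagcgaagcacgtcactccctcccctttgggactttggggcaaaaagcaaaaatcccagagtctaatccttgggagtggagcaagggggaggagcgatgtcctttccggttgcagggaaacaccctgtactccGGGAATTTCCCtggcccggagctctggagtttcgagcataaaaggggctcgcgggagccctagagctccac
Cxcl2: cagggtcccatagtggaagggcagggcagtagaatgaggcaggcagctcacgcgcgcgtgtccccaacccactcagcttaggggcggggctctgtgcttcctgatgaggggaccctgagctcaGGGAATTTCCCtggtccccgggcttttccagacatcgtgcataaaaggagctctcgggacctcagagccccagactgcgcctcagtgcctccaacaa
Cxcl10: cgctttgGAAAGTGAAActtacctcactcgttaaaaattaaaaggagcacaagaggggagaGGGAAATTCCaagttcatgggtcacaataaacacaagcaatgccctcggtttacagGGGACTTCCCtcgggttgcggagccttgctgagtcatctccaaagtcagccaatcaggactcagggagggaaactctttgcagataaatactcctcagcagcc
Pf4: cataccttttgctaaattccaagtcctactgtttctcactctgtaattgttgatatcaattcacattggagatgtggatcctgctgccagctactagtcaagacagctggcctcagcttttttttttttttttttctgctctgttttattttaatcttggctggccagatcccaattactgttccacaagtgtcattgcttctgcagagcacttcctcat

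The longest run shared by the 250 bases before the starts of Cxcl1 and Cxcl2 was GGGAATTTCCCTGG, 14 bases long, which begins 71 bases before the start of Cxcl1 and 97 bases before that of Cxcl2. It occurred in 2 of 32851 windows of that length and place, those of these 2 genes. In Cxcl1 and Cxcl2 the marked stretch holds overlapping matches, read on both strands. The NF-kappaB consensus had a match in 3 of the 8 members with a sequence (Cxcl1, Cxcl2 and Cxcl10) and in 3.90% of all windows. GAAANNGAAA, searched on both strands, matched in Cxcl10 and Cxcl14 and in 2.98% of all windows. TTCNNNGAA, the core of the gamma-activated sequence, matched in Cxcl14 among the members and in 7.02% of all windows. These are matches of letters and say nothing of which factor was bound in these cells. Cxcl1, Cxcl2 and Cxcl10 were lowest in Normal 1, as was Cxcl13, which had no match. Cxcl9, Cxcl12, Cxcl14 and Pf4, without an NF-kappaB match, were lowest in other arrays. Whether matches and array values are linked was not tested.

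Some arrays stood apart. Xist, the RNA of the inactive X chromosome, had a high signal in Ischemic 1, Ischemic 2 and Normal 1, at 9.01, 7.19 and 9.78 on average over its probe sets, against 4.40 to 4.55 in the other 5 arrays, although all samples are labelled male. The brightest probe set of Eif2s3y, a Y-linked gene, was at 5.84 in Ischemic 1 and in Normal 1 but at 7.78 in Ischemic 2, where the 5 arrays of low Xist signal lay between 7.68 and 8.87. That of Kdm5d, another Y-linked gene, was at 6.86, 7.88 and 6.35 in those 3 arrays and between 7.5 and 9.20 in the 5. B cell markers also averaged higher in those 3 arrays, at 8.68, 7.34 and 6.57, against 4.88 to 5.16 in the others. Ischemic 1 had the lowest median correlation with the other arrays across genes (0.752, against 0.850 to 0.913 for the rest). S100a4 was bright in every array, at 11.52 to 12.23 in the Ischemic and 11.30 to 11.94 in the Normal arrays. All 12 macrophage markers, 8 of 8 endothelial, 9 of 10 tubule and 4 of 10 fibroblast markers had a mean level no lower than the all-gene median (5.93). All levels are quantile-normalized log2(intensity + 16), on which the floor is 4.09, and all differences are Ischemic minus Normal on that scale, which understates changes of dim genes.

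Across the family, Pf4 was the member that separated the groups. With limma, 0 of the 10 members passed an adjusted p of 0.05 over all genes, as did 0% of the 18193 genes tested. At an unadjusted p under 0.05, 2 members were higher in the Ischemic arrays (Pf4 and Cxcl10) and 0 lower, where 2.11% of all genes were higher and 5.01% lower. With 1 array left out, the count of members higher at that line ran from 1 to 3. Every Ischemic array lay above every Normal array in 1 of the 10 members, Pf4, against 1.89% of all genes. The difference was positive in 9 of the 10, where 54.8% of all genes were positive. The members' median difference was 0.49, beside 0.041 over all genes, and they ranged from −0.59 (Cxcl12) to 1.71 (Pf4). Without Normal 1 the family's median was 0.18 with 7 of 10 positive, and without Normal 3 it was 0.88 with 9 positive. It was 0.35 with 8 positive among the 3 Ischemic and 2 Normal arrays of low Xist signal, and 0.70 with 8 positive among the 2 Ischemic arrays and the Normal array of high signal. In sorted cells measured in bulk, more cells of a kind and more RNA per cell cannot be told apart.

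**Figure D1:**
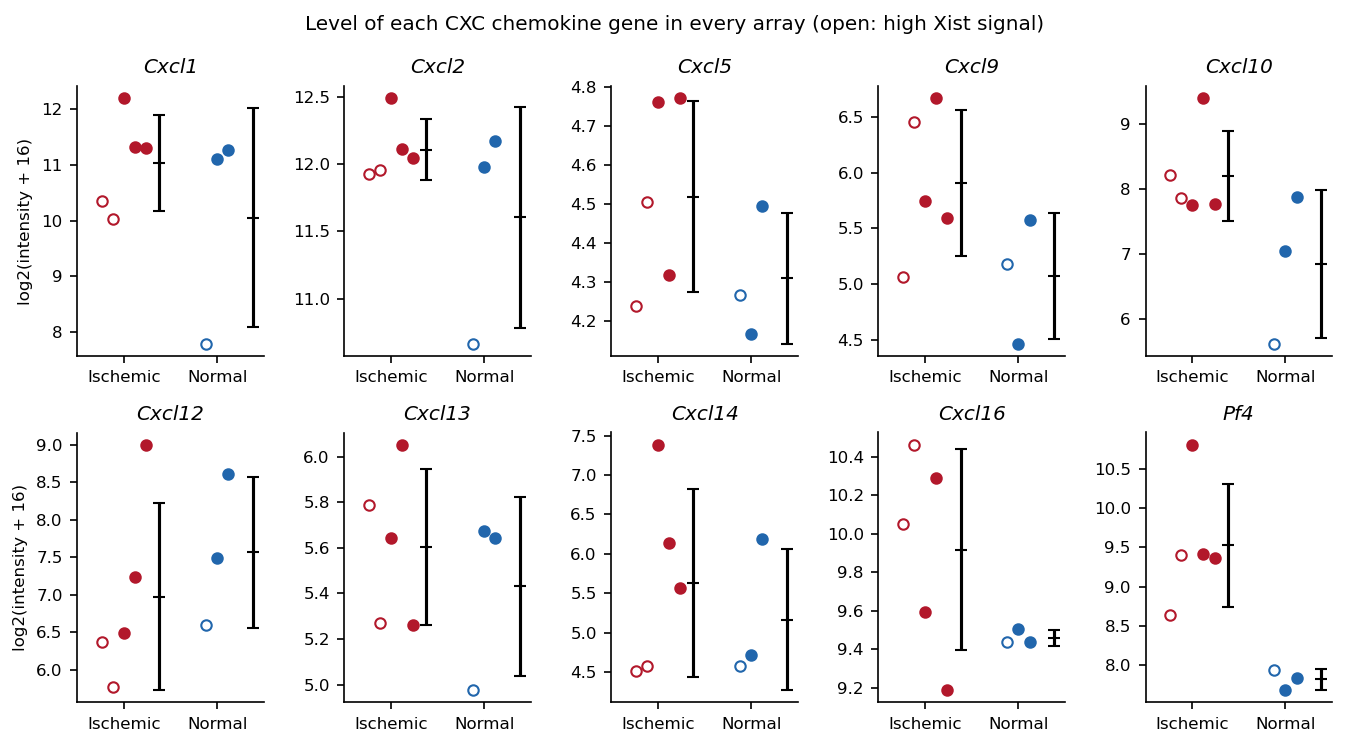
Level of each of the 10 genes on the log2(intensity + 16) scale (vertical axis, its own range in each panel) in the 5 Ischemic (red) and 3 Normal (blue) arrays. Points are arrays, open where the Xist signal was high, and bars show mean ± SD. Only Pf4 has all its red points above all its blue points, Cxcl1 and Cxcl2 have a single low Normal point, Normal 1, and that array is also the lowest for Cxcl10.

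Pf4 encodes platelet factor 4 (CXCL4), a heparin-binding chemokine stored in platelet granules and also made by macrophages. Its levels were 8.64, 9.40, 10.80, 9.41 and 9.37 in Ischemic 1 to 5, against 7.94, 7.68 and 7.84 in Normal 1 to 3. The lowest Ischemic array, Ischemic 1, was above the highest Normal array, Normal 1, and the Normal arrays lay within 0.25 of each other while the Ischemic arrays spanned 2.16. The deposited intensities of its only probe set were 292, 610.47, 1880, 661 and 645 in the Ischemic and 231, 209.97 and 239 in the Normal arrays.

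Pf4 averaged 9.52 ± 0.79 over the Ischemic arrays (SD, n = 5), against 7.82 ± 0.13 over the Normal arrays (SD, n = 3). This is a difference of 1.71 ± 0.43 (SE), a 3.26-fold change on the shifted scale, with a 95% interval of 0.72 to 2.69. It did not pass limma over all genes (adjusted p = 0.236, unadjusted p = 0.0038), while exact permutation of the group labels (two-sided, 56 splits) gave p = 0.0179, the smallest it allows. The difference was 1.39 without Ischemic 3, the highest array, and 1.93 without Ischemic 1, the lowest of its group. Among the arrays of low Xist signal it was 2.10 (exact permutation p = 0.1, the smallest that 3 against 2 arrays allow), and among those of high signal 1.08.

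Macrophage markers were read beside Pf4, since macrophages are a known source of it. All 12 had a positive difference, with a median of 0.76, and 4 of the 12 had groups that did not overlap (1.89% of all genes were apart in that direction). The smallest differences were those of C1qa (0.027) and Mertk (0.14). The 4 were Mrc1, the mannose receptor, at 2.08 ± 0.31 (SE), Cx3cr1, the fractalkine receptor, at 1.77 ± 0.40, Fcgr1, the high-affinity IgG receptor, at 1.71 ± 0.43, and Adgre1, which encodes F4/80, at 1.11 ± 0.27. None of the 12 passed limma over all genes (0 adjusted, 5 at an unadjusted p under 0.05, all higher). Their summed intensity ran from 13866 to 22913 in Ischemic and from 9742 to 11794 in Normal arrays, and no macrophage marker had a mean level under the all-gene median. Without Normal 1 the list had 10 of 12 positive and a median of 0.47, with 4 apart, and among the arrays of low Xist signal it had 12 positive and a median of 0.81. Without Normal 2, 7 were apart, and without Ischemic 1, 6. Groups of fewer arrays come apart more easily, and the share of all genes apart was not taken for these smaller sets, so the counts cannot be compared. The count past an adjusted p of 0.05 was 1 with ribosomal protein genes used to centre the arrays, with an intensity trend and without Normal 3.

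The macrophage mean was 9.10 to 10.32 in Ischemic and 8.59 to 8.94 in Normal arrays, so its groups did not overlap. Ischemic 3 was highest in both Pf4 and the macrophage mean (10.32), and Ischemic 1 was the lowest Ischemic array in both (9.10 for that mean). Taken relative to that mean in the same array, a measure chosen after the values were seen, Pf4 stood at −0.46, −0.46, 0.48, −0.40 and −0.16 in Ischemic 1 to 5, against −0.66, −1.25 and −1.10 in Normal 1 to 3. The groups did not overlap on this measure either, with a difference of 0.80, given with no test. The value depends on the markers averaged, whose own differences ran from 0.027 (C1qa) to 2.08 (Mrc1). Fcgr1 (1.71), Cx3cr1 (1.77) and Mrc1 differed by as much as Pf4 (1.71) or more, and the other markers by less. The part of the macrophage markers in the Pf4 difference was not tested further.

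Platelet genes were also read beside Pf4. Of 9 measured platelet and megakaryocyte markers, 1 had a positive difference, the median was −0.20, and 8 had a mean level under the all-gene median. This direction rested on Normal 2, without which 6 of 9 were positive with a median of 0.058. Their summed intensity ran from 253 to 437 in Ischemic and from 191 to 864 in Normal arrays. Gp9, a subunit of the platelet von Willebrand factor receptor, was between 4.09 and 4.69 in the Ischemic arrays, and at 4.09, 7.33 and 4.09 in Normal 1, 2 and 3. Normal 2, the high array for Gp9, was the lowest for Pf4, but the Pf4 levels of the Normal arrays lay within 0.25 of each other. Whether platelets had a part in the Pf4 values was not tested. Ppbp is the platelet chemokine whose gene lies beside Pf4. It was at 4.24, 4.84, 7.44, 6.70 and 5.77 in Ischemic 1 to 5, against 4.56, 7.67 and 5.73 in Normal 1 to 3. Its groups thus overlapped (−0.19 ± 0.88, SE). Within the Ischemic group Ppbp, like Pf4 and the macrophage mean, was lowest in Ischemic 1 and highest in Ischemic 3. The best represented of these markers were Itgb3, an integrin chain shared with other cells, at −0.20 ± 0.58, and Tubb1, a tubulin of platelets, at −0.20 ± 0.35, and neither passed.

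**Figure D2:**
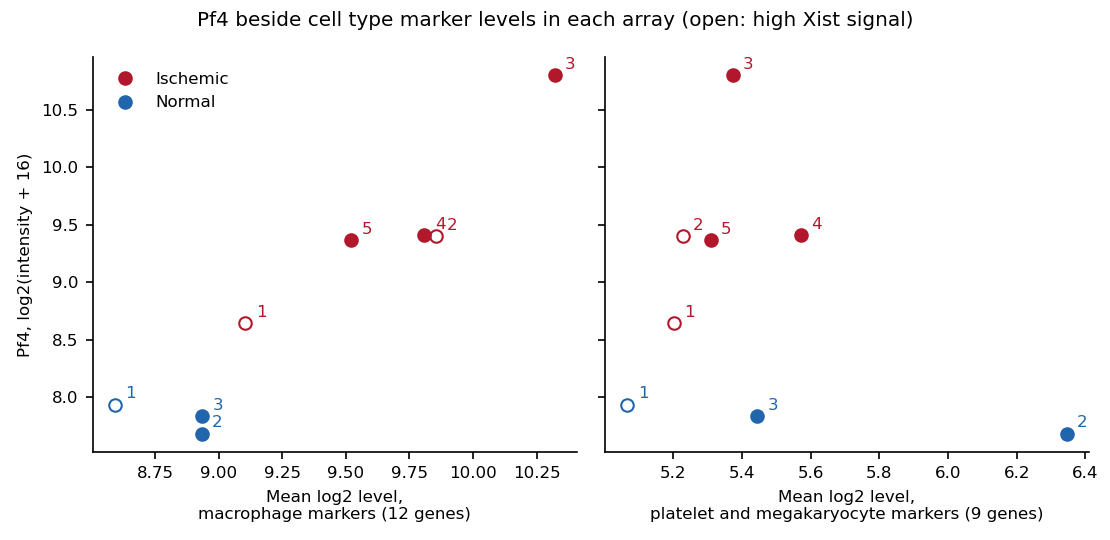
Pf4 level (vertical axis, log2) against the mean log2 level of 12 macrophage markers (left) and of 9 platelet and megakaryocyte markers (right) in each of the 8 arrays, numbered by replicate, with Ischemic in red and Normal in blue and open points for high Xist signal. On the left the Ischemic arrays lie above and to the right of the Normal arrays. On the right Normal 2 has the highest platelet mean (6.35), while the Pf4 levels of the 3 Normal arrays lie within 0.25 of each other.

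Cxcl1 and Cxcl2, the neutrophil attractants, were bright in both groups, and their averages differed mainly through Normal 1. Cxcl1 was at 10.36, 10.03, 12.20, 11.33 and 11.30 in Ischemic 1 to 5, against 7.78, 11.10 and 11.27 in Normal 1 to 3. Cxcl2 was at 11.93, 11.96, 12.49, 12.11 and 12.04 in the Ischemic arrays, against 10.66, 11.97 and 12.17 in the Normal arrays. In both genes Normal 1 was the lowest of the 8 arrays and Ischemic 3 the highest, while Normal 2 and Normal 3 lay inside the Ischemic range.

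The Cxcl1 difference was 0.99 ± 0.84 (SE; 95% interval −0.92 to 2.90, limma adjusted p = 0.933, two-sided exact permutation p = 0.339) and that of Cxcl2 was 0.50 ± 0.36 (limma adjusted p = 0.916, exact permutation p = 0.25). Without Normal 1 the Cxcl1 difference turned to −0.14 and the Cxcl2 difference was 0.032. Among the arrays of low Xist signal they were 0.42 and 0.14, and among those of high signal, which include Normal 1, they were 2.41 and 1.28. Without Normal 3 they were 1.60 and 0.79, and without Normal 2 Cxcl1 was at 1.51. The 3 probe sets of Cxcl1 gave 0.99, 1.03 and 1.07. The first 2 carry suffixes that mark probes which may match other transcripts, and the probe set without one gave 1.07.

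Cxcl5, the remaining Cxcr2 ligand of the family, was near the floor in every array, from 4.24 to 4.77 in Ischemic and from 4.17 to 4.49 in Normal arrays (deposited intensities of 3.6 to 11.15 and of 1.77 to 6.65). Its groups overlapped, and its difference of 0.21 ± 0.22 (SE, limma adjusted p = 0.953) is at a level where this scale has little range. The related ligand Cxcl3, a neighbour on chromosome 5 outside the 10, varied as widely in both groups, at 4.83 to 9.83 in Ischemic and 4.41 to 9.01 in Normal arrays (0.23 ± 1.29, SE), and was also lowest in Normal 1 and highest in Ischemic 3. Of the 5 CXC ligands outside the 10, 2 had a positive difference, the median was −0.16 and 0 passed limma over all genes or at an unadjusted p under 0.05.

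Genes of NF-kappaB signalling were read beside Cxcl1 and Cxcl2, whose promoters carry the matches shown above. Of 16 measured genes of the inputs and feedback of that pathway, 13 had a positive difference with a median of 0.25, and none passed limma over all genes or at an unadjusted p under 0.05. Normal 1 was the lowest of all 8 arrays in 8 of the 16 and in 4 of the 10 CXC genes, compared with 14.8% of all genes. Il6, the cytokine, was at 7.0, 6.97, 8.53, 7.33 and 7.14 in Ischemic 1 to 5, against 4.68, 7.05 and 7.86 in Normal 1 to 3. Il1b, the brightest input, was at 11.20, 11.27, 11.84, 11.50 and 11.82 in the Ischemic arrays, against 9.86, 11.82 and 12.06 in the Normal arrays. Nfkbia, the inhibitor induced by the pathway itself, was at 11.41 to 12.03 in Ischemic arrays, against 10.44, 11.73 and 11.81 in Normal 1 to 3. In each of these genes Normal 1 was lowest and the other Normal arrays fell within or above the Ischemic range. The differences were 0.28 ± 0.48 (SE) for Il1b and 0.36 ± 0.34 for Nfkbia. Without Normal 1 the list had 4 of 16 positive and a median of −0.084, and among the arrays of low Xist signal it had 9 of 16 positive and a median of 0.056, and without Normal 3 it had 15 positive and a median of 0.61. Among those of high signal 11 of 16 were positive with a median of 0.85.

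**Figure D3:**
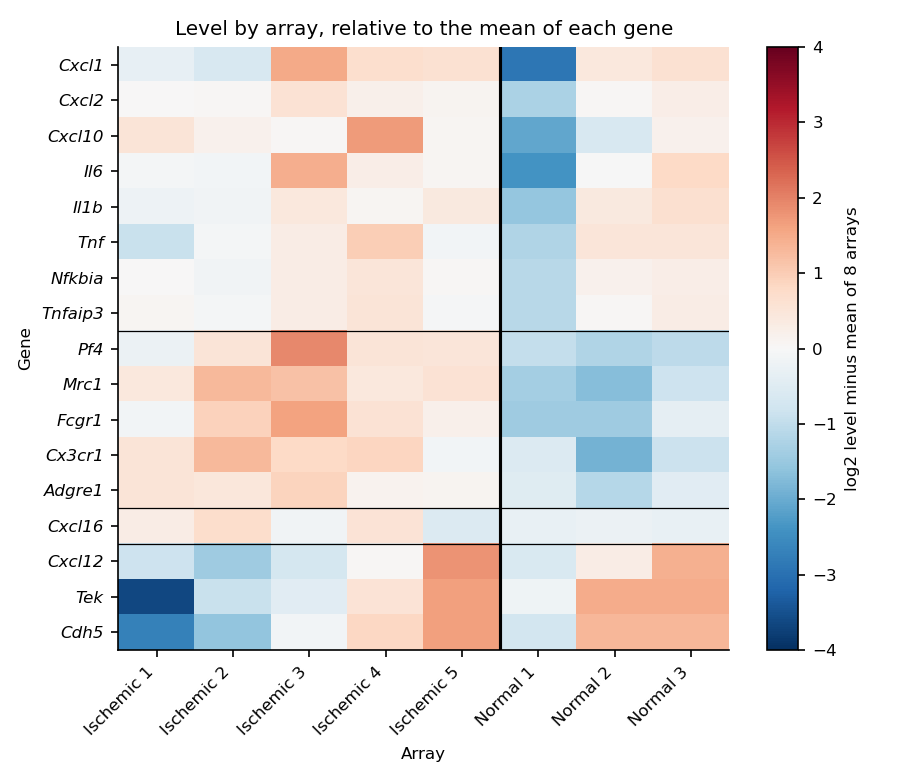
Level of 17 genes in each array, relative to the gene's own mean over the 8 arrays (colour, log2 units), with the 5 Ischemic arrays left of the line and the 3 Normal arrays right of it. Cxcl1, Cxcl2, Cxcl10 and the NF-kappaB genes shown (top block) are lowest in Normal 1, as are 8 of the 16 measured in that list. Pf4 and the macrophage genes shown (second block) are lower in all 3 Normal arrays. These macrophage genes are the 4 of 12 markers whose groups did not overlap. Cxcl12, by its brightest probe set (bottom block, with the endothelial genes Tek and Cdh5), is highest in Ischemic 5.

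Cxcl10 and Cxcl9, the interferon-induced ligands of Cxcr3, were higher on average in the Ischemic arrays, with groups that overlapped. Cxcl10 was at 8.22, 7.87, 7.75, 9.40 and 7.77 in Ischemic 1 to 5, against 5.62, 7.05 and 7.87 in Normal 1 to 3. Normal 3 lay among the Ischemic arrays, Ischemic 4 stood above the rest, and Normal 1 was the lowest. The Cxcl10 difference was 1.35 ± 0.56 (SE), 2.56-fold on the shifted scale, with an unadjusted p of 0.0402, a limma adjusted p of 0.661 and a two-sided exact permutation p of 0.0714. The unadjusted p was above 0.05 without Ischemic 1, 2 or 4, Normal 1 (0.183) or Normal 2, and likewise with array weights (0.145) and median centring (0.0691), and it was 0.0123 without Normal 3. The Cxcl10 difference itself was 0.74 without Normal 1 and 0.85 among the arrays of low Xist signal, against 2.42 among those of high signal.

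Cxcl9 was at 5.07, 6.45, 5.74, 6.67 and 5.59 in Ischemic 1 to 5, against 5.18, 4.47 and 5.58 in Normal 1 to 3. Of the 5 Ischemic arrays, 4 lay above the highest Normal array and Ischemic 1 lay inside the Normal range. Its difference was 0.83 ± 0.42 (SE; limma adjusted p = 0.779, exact permutation p = 0.125), 0.53 without Normal 2, 0.98 among the arrays of low Xist signal and 0.58 among those of high signal. The other Cxcl9 probe set, which is dimmer, gave −0.14, so the sign rests on the probe set. The mean of both was at 0.35. Cxcl11, another ligand of Cxcr3 and outside the 10, was at 4.15 to 5.31 in Ischemic and 4.19 to 4.46 in Normal arrays.

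Of 12 measured genes of the interferon gamma pathway, 10 had a positive difference with a median of 0.24, and none passed limma over all genes or at an unadjusted p under 0.05. Irf1 and Irf8, transcription factors of the interferon response, had the highest levels of the list. Irf1 was at 9.52 to 10.26 in Ischemic and 8.74 to 9.99 in Normal arrays (0.52 ± 0.31, SE). Irf8, which is also a factor of the myeloid lineage, was at 8.71 to 10.37 in Ischemic and 8.22 to 9.42 in Normal arrays (0.79 ± 0.42). Ifng itself lay between 4.25 and 5.88 in Ischemic and 4.18 and 5.68 in Normal arrays. These levels run from near the floor to just under the all-gene median (5.93). Without Normal 1 the pathway had 8 of 12 positive and a median of 0.064, and 9 of 12 with a median of 0.41 among the arrays of low Xist signal.

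Cxcl16 is a chemokine made as a membrane protein, cut loose by Adam10 and bound by Cxcr6. It was at 10.05, 10.46, 9.59, 10.29 and 9.19 in Ischemic 1 to 5, against 9.43, 9.51 and 9.43 in Normal 1 to 3. The Normal arrays agreed within 0.072, 4 Ischemic arrays lay above them and Ischemic 5 lay below. The difference was 0.46 ± 0.31 (SE; limma adjusted p = 0.900, exact permutation p = 0.232), 0.22 among the arrays of low Xist signal and 0.82 among those of high signal. The other Cxcl16 probe set gave 0.12 with another array pattern. There Normal 1 to 3 were at 9.34, 8.55 and 8.77, and of the Ischemic arrays only Ischemic 2 (9.69) lay above them all. With arrays centred on ribosomal protein genes, a scaling that moved the median of all genes to −0.19, Cxcl16 was at −0.0076. Adam10 was at 9.06 to 10.08 in Ischemic and 8.63 to 10.06 in Normal arrays (0.098 ± 0.37). Srgn, a proteoglycan of the granules in which chemokines are stored, was at 10.80 to 11.45 in Ischemic and 9.99 to 11.39 in Normal arrays (0.34 ± 0.34). Of the 11 measured genes for processing and binding these ligands, 7 had a positive difference with a median of 0.098, and 0 passed limma over all genes or at an unadjusted p under 0.05. Without Normal 1 this median was −0.069 and without Ischemic 3 it was −0.21.

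Cxcl12, the stromal and endothelial chemokine that binds Cxcr4 and Ackr3, was the member with a lower Ischemic average. Its brightest probe set was at 6.36, 5.77, 6.49, 7.24 and 9.0 in Ischemic 1 to 5, against 6.60, 7.49 and 8.60 in Normal 1 to 3. Ischemic 5 was the highest of the 8 arrays, and the other Ischemic arrays lay below Normal 2. The difference was −0.59 ± 0.74 (SE; limma adjusted p = 0.954, exact permutation p = 0.518), with −1.10 without Ischemic 5, −1.08 without Normal 1, −0.29 without Ischemic 2 and −0.072 without Normal 3. It was −0.47 among the arrays of low Xist signal and −0.53 among those of high signal. Its other probe sets gave −1.33 and 0.29, so they disagreed in sign.

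Endothelial markers were read beside Cxcl12, since endothelium is a known source of it. Their mean was 6.11, 6.86, 7.85, 8.64 and 9.98 in Ischemic 1 to 5, against 7.79, 9.52 and 9.48 in Normal 1 to 3. It was highest in Ischemic 5, as was the brightest Cxcl12 probe set. The other Cxcl12 probe sets were highest in Normal 2 (8.28) and in Ischemic 1 (7.62), where the endothelial mean was lowest. All 8 endothelial markers had a negative difference with a median of −1.11. None passed (0 with limma over all genes, 0 at an unadjusted p under 0.05). Their summed intensity ran from 696 to 8593 in Ischemic and from 1822 to 6366 in Normal arrays. Tek, the angiopoietin receptor, differed by −1.50 ± 1.06 (SE) and Cdh5, VE-cadherin, by −1.03 ± 0.99. Without Ischemic 1 the list's median was −0.59, and without Normal 1 it was −1.62. Without Ischemic 5 it was −1.59 with 3 genes lower at an unadjusted p under 0.05. The part of these markers in the Cxcl12 values was not tested.

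Cxcl13, which attracts B cells through Cxcr5, and Cxcl14, a chemokine of epithelia and stroma, had mean levels below the all-gene median, as did Cxcl5 and Cxcl9. Cxcl13 was at 5.79, 5.27, 5.64, 6.05 and 5.26 in Ischemic 1 to 5, against 4.98, 5.67 and 5.64 in Normal 1 to 3, and its difference of 0.17 ± 0.28 (SE, limma adjusted p = 0.962) turned to −0.055 without Normal 1 and −0.0066 among the arrays of low Xist signal. Cxcl14 was at 4.51, 4.57, 7.38, 6.14 and 5.56 in the Ischemic arrays, against 4.58, 4.72 and 6.19 in the Normal arrays. Both groups held arrays near the floor and arrays well above it. The other Cxcl14 probe set, at a mean level of 5.35 beside 5.46, gave 0.34 with another array pattern. There Ischemic 2 was at 6.42, Ischemic 4 at 4.82 and Normal 1 at 5.35. The Cxcl14 difference was 0.47 ± 0.70 (SE, limma adjusted p = 0.962), 0.032 without Ischemic 3, 0.98 without Normal 3, 0.75 without Ischemic 1 and 0.73 without Ischemic 2. It was 0.91 among the arrays of low Xist signal and −0.037 among those of high signal.

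Among the CXC receptors, 4 of 7 measured genes had a positive difference with a median of 0.092, and 0 passed limma over all genes or at an unadjusted p under 0.05. The sign of that median turned without Ischemic 1 (−0.067), Ischemic 2 (−0.053) or Normal 3 (−0.039). Cxcr4, the Cxcl12 receptor of leukocytes, was bright throughout, at 10.33 to 11.62 in Ischemic and 10.21 to 10.91 in Normal arrays (0.35 ± 0.36, SE). Ackr3, the scavenging receptor of Cxcl12, was at 4.65, 4.98, 8.93, 4.90 and 7.84 in Ischemic 1 to 5, against 8.95, 8.18 and 8.10 in Normal 1 to 3. Ischemic 1, 2 and 4 were near the floor, and Ischemic 3 lay within the Normal range. Its difference of −2.15 ± 1.02 was the widest of the receptors and did not pass (limma adjusted p = 0.747, unadjusted p = 0.0664). Without Ischemic 3, the only Ischemic array inside the Normal range, its groups were bound not to overlap. In that setting 1 receptor was lower at an unadjusted p under 0.05. The same count was 1 without Ischemic 5, with median or ribosomal centring and with log2(intensity + 1). It was also 1 among genes above the 40th percentile of level and with an intensity trend. With all 8 arrays 5.01% of all genes were lower at that line, and the shares in these other settings are not given here. Cxcr2, which neutrophils carry, was at 4.65 to 6.69 in Ischemic and 4.77 to 5.61 in Normal arrays.

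Neutrophil markers had 4 of 8 positive differences and a median of 0.089, with 0 past limma over all genes or at an unadjusted p under 0.05. S100a9 was at 5.86 to 9.49 in Ischemic and 7.42 to 9.39 in Normal arrays (−0.91 ± 0.82, SE), and Csf3r differed by 0.73 ± 0.70. With 1 array left out, the median of the list ran from −0.074 to 0.28. T and NK cell markers, which include targets of Cxcr3 ligands, had 3 of 6 positive and a median of 0.082. Cd3e was at 4.81 to 9.65 in Ischemic and 5.53 to 8.84 in Normal arrays, and Cd3g differed by 1.02 ± 1.10. Without Normal 1 this list had 5 of 6 positive and a median of 0.67. B cell markers had 5 of 5 positive and a median of 0.68, which was 0.11 without Ischemic 1 and −0.049 with 1 of 5 positive among the arrays of low Xist signal. Cd79b, a chain of the B cell receptor, differed by 0.40 ± 0.75, and Pax5, the B lineage factor, by 0.83 ± 1.10. Fibroblast markers had 8 of 10 positive and a median of 0.44, with Col1a1 at 1.27 ± 0.77 and Col1a2 at 0.93 ± 0.73, neither past limma, and the list's median was 0.18 without Normal 1 and 0.22 without Ischemic 3.

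Tubule markers had lower averages in the Ischemic arrays. All 10 were negative with a median of −2.66, and 8 of them had groups that did not overlap (3.42% of all genes were apart in that direction), among them Lrp2 at −3.87 ± 0.71 (SE), Slc34a1 at −3.88 ± 0.97, Slc22a6 at −3.81 ± 0.71 and Cubn at −3.09 ± 0.64. None passed limma over all genes (0 adjusted, 8 at an unadjusted p under 0.05, all lower), whereas 8 of the 10 did with that ribosomal centring, 3 with an intensity trend and 2 without Normal 3. Their summed intensity ran from 2435 to 4644 in Ischemic and from 9954 to 13868 in Normal arrays. Whether less tubule RNA in the Ischemic arrays moves the levels of the CXC genes was not tested.

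**Figure D4:**
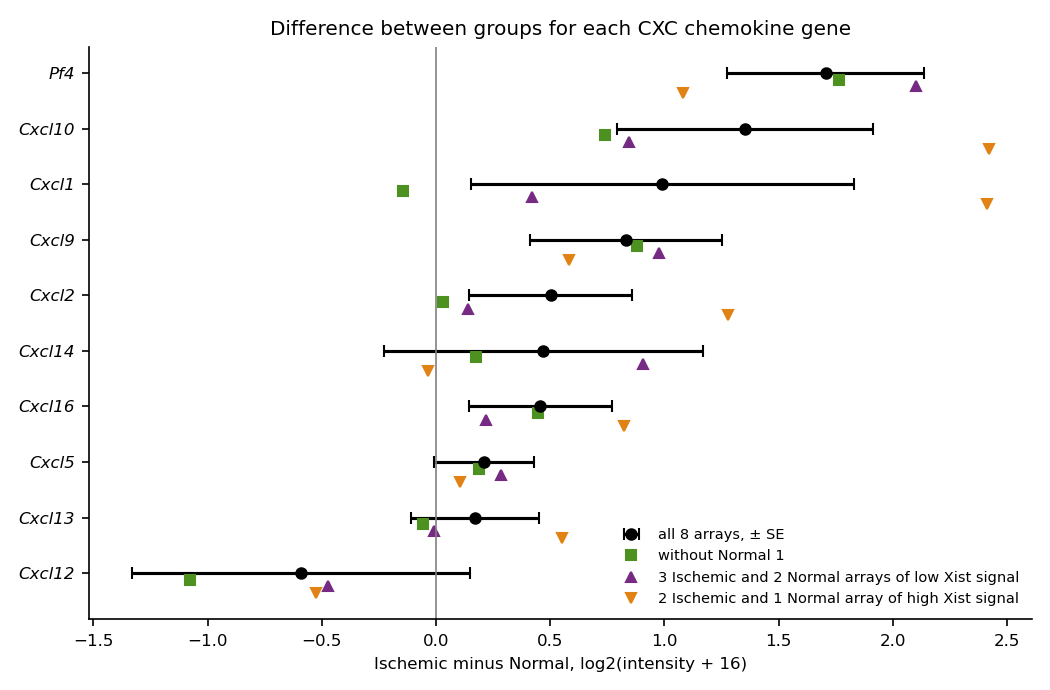
Ischemic minus Normal difference (horizontal axis, log2) of each of the 10 genes with all 8 arrays (black, ± SE), without Normal 1 (green), and within the arrays of low (purple) and high (orange) Xist signal. Pf4 is positive and above 1 in every setting shown, whereas Cxcl1 runs from −0.14 without Normal 1 to 2.41 among the arrays of high signal.

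The members' array patterns were set against those of all other genes, for the 4 members of widest range, as the root mean square difference over the 8 arrays between levels centred on each gene's own mean. This is a description of 8 arrays, and close genes can share no more than an array's make-up. Nearest to Cxcl1, whose own spread was 1.25, were Jdp2 (0.40), Il6 (0.40) and Timp2 (0.44). Nearest to Cxcl10 (own spread 0.998) were Ppp6r3 (0.28), Kdm6b (0.31) and Panx1 (0.35). Nearest to Pf4 (own spread 0.997) were Cep55 (0.35), Fcgr1 (0.37) and Cdc20 (0.41), an Fc receptor of macrophages and 2 genes of cell division. Nearest to Cxcl12 (own spread 1.05) were Ephx1 (0.26), Slco2a1 (0.29) and Pkn3 (0.29). Within the family the nearest member to Cxcl1 was Cxcl2 (0.78), and the nearest to Pf4 was Cxcl9 (0.81), whereas Pf4 and Cxcl1, of the same run of genes on chromosome 5, lay 1.15 apart.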

How the data were processed

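Total RNA from FACS-sorted GFP-positive kidney cells was amplified and labelled with NuGEN kits, per the labels' protocols. The series' design text names Affymetrix mouse arrays. For these 8 arrays the authors deposited linear probe set intensities. How they were summarised and scaled is not given in the sources used here. Precision is limited by the number of arrays. Titles gave the groups (5 Ischemic, 3 Normal).

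The table had 45101 probe sets. Tests left out 64 controls. Of the others, 34945 had 1 gene symbol, 932 had several and 9160 were unlisted in the annotation used. Intensities were taken as log2(value + 16) and quantile normalized, and a gene was its probe set of highest mean. All 18193 genes were fitted with limma 3.58.1 in R 4.3.3 (lmFit, eBayes), and p-values were adjusted by Benjamini-Hochberg across the whole set, with 0.05 as the threshold. The step was tested on simulated data. Exact permutation tests were two-sided over 56 splits. Arrays were called high in Xist above the midpoint between the lowest and highest array.

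The members, lists and tests were chosen with earlier results of these data known. All 10 members are named. Of each other list the rule named up to 4 genes whose groups did not overlap, or else the 2 of highest level. The other genes named from the lists (Il6, Gp9, Cxcl11, Ifng and Cxcr2) were chosen after their values were seen. Some genes of the lists were not analysed here, and counts are over those measured. Promoter windows (RefSeq, GRCm38.p6) matched 8 of the 10 members by symbol, and the 250 bases before the start were searched. Alternatives were other scalings, pseudocounts, filters, probe set rules, eBayes options, array weights, a replicate block, each array left out and the Xist signal. Python 3.11.15 and matplotlib 3.10.9 made the figures.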

Additional observations from a re-analysis of the deposited data

Results flagged for a closer look

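Cxcl10 in Ischemic 4, at 9.40, lay farther above the other 4 Ischemic arrays (7.75 to 8.22) than the 95% limit for a gap in a group of 5. Without Ischemic 4 the difference between groups was 1.06. Cubn in Ischemic 3, at 5.79, likewise stood above the other Ischemic arrays (4.68 to 4.94), while all of them stayed below the lowest Normal array (6.22). These were 2 of 41 genes looked at in this way, and chance alone places about 1 group in 20 past the limit. Groups of 3 were not looked at in this way, so the low values of Normal 1 in Cxcl1, Cxcl2 and Cxcl10 are given as values only.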

How the results depend on the processing

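No member passed limma under any of the alternatives, and 212 of 219 values of the 10 members kept their sign. Those that turned were Cxcl1 (−0.14) and Cxcl13 (−0.055) without Normal replicate 1, Cxcl13 with array weights (−0.0087), with arrays centred on ribosomal protein genes (−0.048) and with the arrays of high Xist signal left out (−0.0066), Cxcl16 with that ribosomal centring (−0.0076), and Cxcl14 among the arrays of high Xist signal alone (−0.037), a setting added after the data were seen. Turned values lay near 0, and the cause was not tested. Pf4 ran from 1.08 to 2.10 over all alternatives (adjusted p from 0.120 to 0.883) and from 1.39 to 1.93 with 1 array left out. With 1 array left out Cxcl1 ran from −0.14 to 1.60, Cxcl10 from 0.74 to 1.87, Cxcl13 from −0.055 to 0.29 and Cxcl12 from −1.10 to −0.072. Cxcl5 was dropped by the filter at the 40th percentile of level. The count of all genes past the threshold, 0 here with 1295 at an unadjusted p under 0.05, became 269 with ribosomal centring (2 higher, 267 lower, with the median of all genes at −0.19), 31 with an intensity trend, 15 among genes above the 40th percentile, 5 with array weights, 2 with the mean of all probe sets, 1 with a pseudocount of 1 and 1 with the Xist signal as a block. With each array left out it ran from 0 to 112, the highest without Normal 3. With the replicate number as a block the count was 0, Pf4 was at 1.80, Cxcl12 at −1.35 (unadjusted p = 0.0373), Cxcl10 at 1.10 (unadjusted p = 0.129), and the endothelial median at −2.14 with 6 of 8 lower at an unadjusted p under 0.05. The deviations of pairs 1, 2 and 3 correlated at 0.16, −0.088 and 0.10 across genes. Normal 1, 2 and 3 each correlated best with another number (Ischemic 2, 5 and 5, at 0.175, 0.054 and 0.31). So few correlations cannot decide whether arrays of the same number share more than that number.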
